A study of Mus musculus with 6 samples.

Results

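Cells of a tumor-bearing mouse given 2DG were compared with those of a control mouse, class by class, by single-cell RNA sequencing. 2DG (2-deoxy-D-glucose) is a glucose and mannose analog that lowers the assembly of branched N-glycans on cell surface proteins and also slows glycolysis. The comparison used 2 of the 6 libraries of the series, 1 mouse each. Mice were C57BL/6 females of 6 to 8 weeks whose ovarian bursa had been injected with KPCA cells (a mouse ovarian cancer line with intact homologous recombination), and which were killed on day 30. The age is that of the methods, since the labels of these libraries give none, and the design text of the series mentions both young and old animals. The 2DG mouse was injected intraperitoneally with 500 mg/kg in PBS every 2 days from day 9, and the control mouse received solvent and control rat IgG. The other 4 libraries came from mice given 2FF (2-fluoro-L-fucose, a fucosylation inhibitor), an antibody to PD-L1, or that antibody with 2DG or with 2FF, and their values stand beside each result as a range. The sample labels name 2FF as 2F-Peracetyl-Fucose instead.

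Cells with at least 250 genes and at most 5% mitochondrial UMIs (unique molecular identifiers, 1 per captured transcript) were kept, which left 9075 of 9655 barcodes in the control library and 7703 of 8701 in the 2DG library. Kept cells that passed a single lineage gate were assigned to 1 of 7 classes by marker genes: T, NK, B, neutrophil, monocyte, macrophage or dendritic cell. Left out were 610 control and 612 2DG cells that passed no gate. A further 46 and 69 with markers of plasma, epithelial tumor, fibroblast, endothelial, or mast cells or basophils were also left out. In all, 7505 control cells and 6602 2DG cells entered the 7 classes, 14107 of the 51633 kept cells of the series. With 1 mouse per group there was no replicate, so intervals (95%, exact) cover counting error only, no test was possible, and differences between these mice cannot be told apart from differences between treatments.

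As background, interferon-gamma made by T and NK cells switches on the transcription factor IRF1, the guanylate-binding proteins, the T cell-attracting chemokines CXCL9 and CXCL10, and, through the coactivator CIITA, the MHC class II genes that present antigen to CD4 T cells. Low oxygen instead stabilizes HIF transcription factors, which raise glycolytic enzymes and genes such as Hilpda and Bnip3. Tumors often hold neutrophils, monocytes and macrophages that suppress T cells, partly through arginase (Arg1) and inducible nitric oxide synthase (Nos2).

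The libraries held 73885214 (control) and 61859753 (2DG) UMIs, with medians of 6196 and 6745 per kept cell. Cells that passed more than 1 lineage gate, possible doublets, were left out and made up 10.1% of control cells and 5.45% of 2DG cells. Of these, 721 control cells and 47 2DG cells passed both the neutrophil gate and that of monocytes and macrophages. All gate markers were detected in their own class in both libraries. The sample labels give lymph node as the tissue whereas the methods describe ovarian tumors, and markers of lymph node stroma (5 genes) summed to at most 1.30 CPM (counts of a gene scaled to a class total of 1000000 UMIs) in both libraries in every class other than B cells. In B cells that sum was 106 CPM in the control and 132 CPM in 2DG, with 4 of the 5 genes at 0. The 6 markers of epithelial tumor cells summed to at most 25.3 CPM in any class of the 2 libraries. Cells with more than 1 of these 6 markers had been left out of the classes, which holds that sum low. Both sums cover classified immune cells only, so they cannot tell which tissue was sampled.

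T cells were 39.1% of classified cells with 2DG (interval 37.9 to 40.3%, 2582 cells) and 4.82% in the control (4.35 to 5.33%, 362 cells), an 8.11-fold difference. The 2DG share lay above the 24.9 to 34.5% of the other 4 libraries, and the control share lay below it. NK cells, innate killers of tumor cells, were 3.98% with 2DG (3.52 to 4.48%) and 0.293% in the control (0.184 to 0.443%), a 13.6-fold difference, and 1.86 to 4.99% in the other libraries. B cells were 1.65% against 0.839%, both below the 2.72 to 4.87% of the other libraries.

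Neutrophils showed the opposite order. They made up 36.1% of classified control cells (34.98 to 37.17%, 2707 cells) and 4.51% with 2DG (4.03 to 5.04%, 298 cells), 7.99-fold fewer, against 2.91 to 5.10% in the other 4 libraries. Only the control library was rich in neutrophils, so the 2DG share lay within the range of the other treated mice. Monocytes were 33.6% in the control and 23.9% with 2DG, where the other libraries held 27.2 to 37.6%. Macrophage shares were close, at 20.6% (19.7 to 21.5%) and 21.1% (20.1 to 22.1%). Dendritic cells were 3.82% and 5.82%, with 2.49 to 4.78% elsewhere.

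Shares add up to 100%, so a high share of neutrophils lowers the others. Over classified cells without neutrophils, T cells were 7.54% in the control and 41.0% with 2DG, and NK cells 0.459% and 4.17%. Dendritic cells then differed little, at 5.98% (5.33 to 6.69%) and 6.09% (5.51 to 6.71%), and B cells were 1.31% (1.01 to 1.68%) and 1.73% (1.42 to 2.08%). Monocytes were 52.5% against 25% on this base, and macrophages 32.2% against 22.05%. Neutrophils, monocytes and macrophages together took 90.2% of control cells and 49.4% of 2DG cells, and T, NK and B cells took 5.96% and 44.7%.

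**Figure D1:**
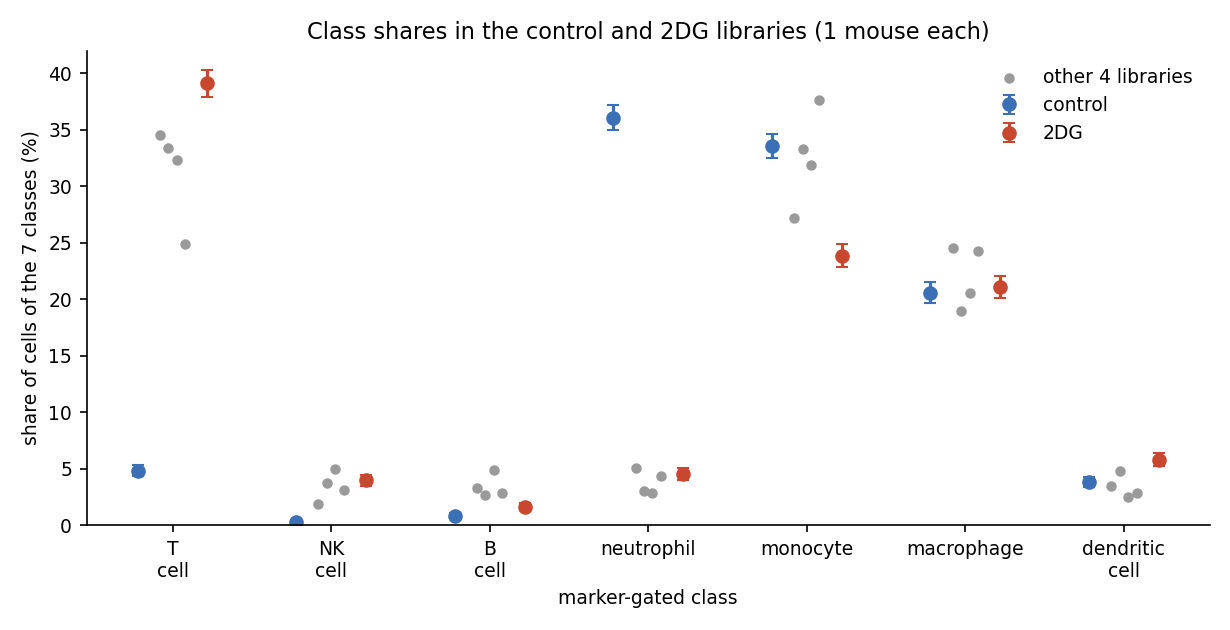
Share of classified cells (percent, y axis) in each of 7 classes for control, 2DG and the other 4 libraries, with exact 95% binomial intervals of counting error and 1 mouse per library. The control stands apart by its neutrophils (36.1%) and its T cells (4.82%), while the 2DG library has the most T cells of the 6 (39.1%).

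For gene levels, the UMIs of all cells of 1 class and 1 library were added up and expressed as CPM of their total. A gene was tested, in the sense of being compared, when the 2 libraries together held at least 50 of its UMIs in the class. Its log2 ratio was log2((CPM with 2DG + 5)/(CPM in control + 5)), and folds given below are on the same scale, except those against a library with no UMI of the gene, which are the CPM over that of 3 counts, with nothing added. The exact interval given with some ratios is that of the CPM ratio without the added 5 CPM, so at low levels it lies further from 0.

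Monocytes and neutrophils held the largest numbers of genes past 2-fold, and dendritic cells and T cells the smallest shares. In monocytes 438 of 11356 genes were at least 2-fold higher with 2DG (3.86%) and 370 lower (3.26%). In neutrophils 549 of 8297 genes were higher (6.62%) and 469 lower (5.65%). Macrophages had 129 higher (1.11%) and 181 lower (1.56%) of 11625, dendritic cells 65 (0.684%) and 79 (0.832%) of 9500, T cells 37 (0.33%) and 123 (1.1%) of 11204, and B cells 65 (2.01%) and 54 (1.67%) of 3230. NK cells had 374 higher (7.86%) and 129 lower (2.71%) of 4761, but only 134 and 119 of these had an interval that excluded equal levels, since the control held 22 NK cells. These shares of all genes are the background for the counts of list members below.

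The median log2 ratio of all genes was 0.15 in neutrophils, 0.14 in monocytes and from -0.03 to 0.03 in the other 5 classes, rounded to 2 decimals. Centring on that median moved the percentage of genes past 2-fold that were higher from 53.9% to 35.3% in neutrophils and from 54.2% to 40.2% in monocytes.

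The control and 2DG levels of these genes were set beside the other treated libraries. Of the genes past 2-fold in monocytes, the control lay outside the range of the other 4 libraries, on the side that the difference called for, in 436 of 438 higher genes and 362 of 370 lower genes. The 2DG library lay outside that range, in its own direction, in 198 and 219 of them. In T cells the control was outside in 34 of 37 and 120 of 123 genes and 2DG in 9 and 40. In macrophages the control was outside in 124 of 129 and 178 of 181, and 2DG in 30 and 52. In neutrophils the control was outside in 416 of 549 and 396 of 469, and 2DG in 259 and 200. In B cells the control was outside in 59 of 65 and 52 of 54, and 2DG in 40 and 30. In most of these genes the control mouse thus stood apart from all treated mice, and 2DG lay outside the range of the others in fewer.

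**Figure D2:**
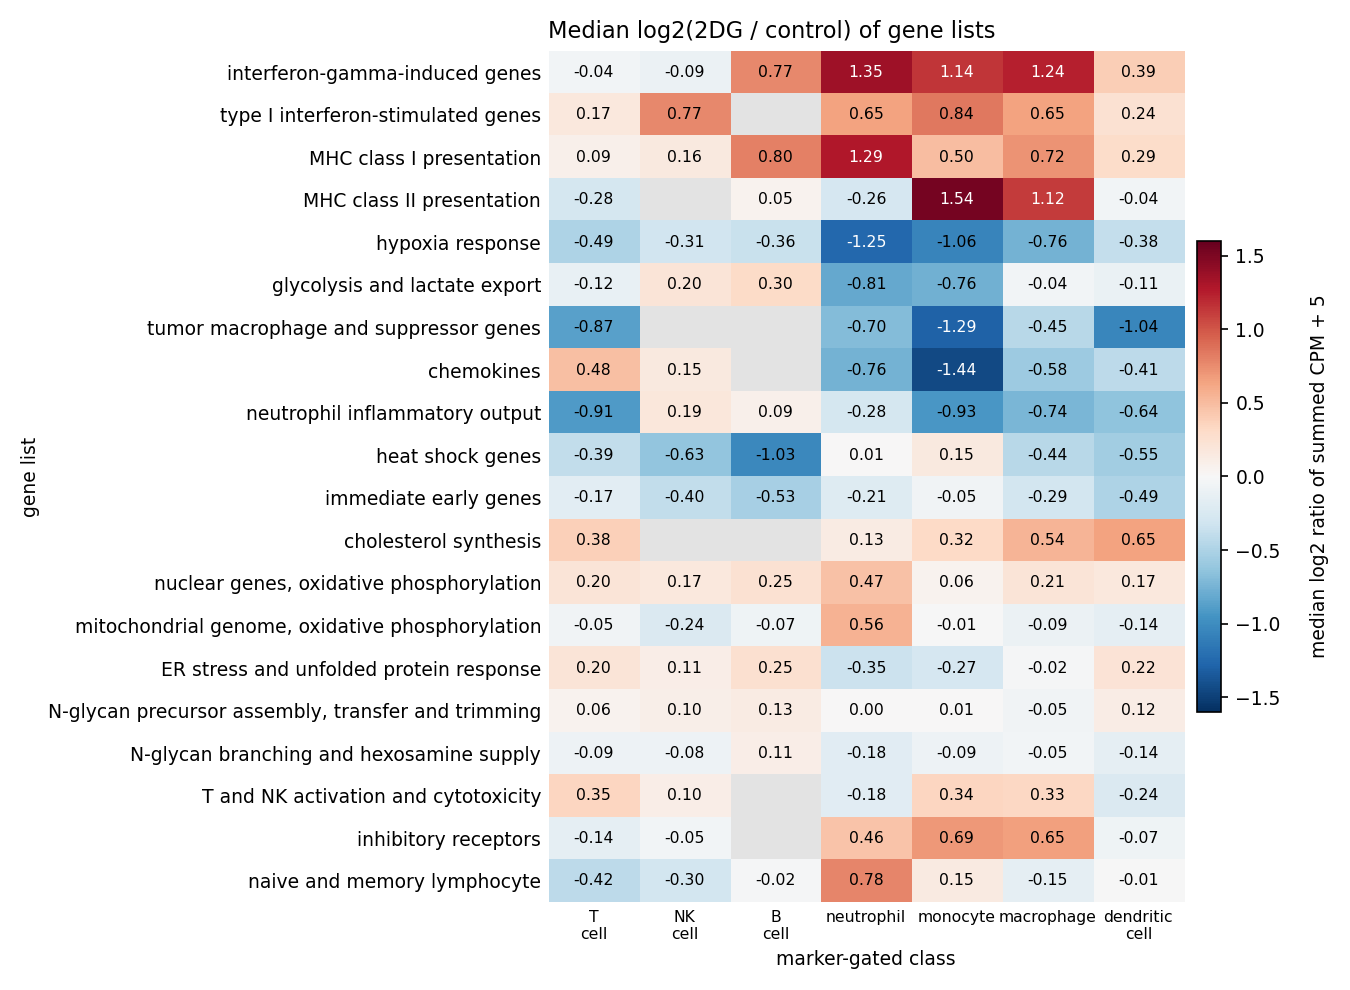
Median log2 ratio (2DG over control, summed CPM + 5) of each gene list (rows) in each class (columns), on a color scale centred at 0, with grey cells for fewer than 5 genes compared. Interferon-gamma-induced genes are above 1 in neutrophils, monocytes and macrophages, hypoxia genes are below -1 in neutrophils and monocytes, and N-glycan lists lie between -0.18 and 0.13 in the 7 classes.

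The interferon axis begins with its ligand. Ifng (chr10:118441046-118445892, plus strand) was at 146 CPM (95% interval 131 to 161) in control T cells and 351 CPM (342 to 359.5) with 2DG, 2.36-fold higher, with 439 to 577 CPM in the other libraries. In CD8 T cells it was 208 and 444 CPM, and in CD4 T cells 186 and 363 CPM. NK cells had the opposite order, 316 CPM in the 22 control cells and 216 with 2DG (log2 ratio -0.54, interval -1.01 to -0.05). Among T cells the 2DG value lay between the control and the other libraries.

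Genes induced by interferon-gamma were higher with 2DG in neutrophils, monocytes and macrophages. Of the 25 listed genes, 14 of 19 compared in neutrophils were past 2-fold higher and 1 lower (background 6.62% and 5.65%), with a median log2 ratio of 1.35. In monocytes 15 of 24 were higher and 1 lower (background 3.86% and 3.26%), median 1.14. In macrophages 14 of 24 were higher and none of the listed genes lower (background 1.11% and 1.56%), median 1.24. Dendritic cells had 1 higher and 1 lower of 23 (background 0.684% and 0.832%), and T cells none higher and 1 lower of 21 (background 0.33% and 1.1%), with medians of 0.39 and -0.04. No gate marker is on this list, and 6 of its 25 genes are also on another list.

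Irf1 (chr11:53770014-53778374, plus strand), a transcription factor that carries the response on to other genes, was at 123 CPM (95% interval 119 to 128) in control and 523 CPM (510.3 to 537) in 2DG monocytes, 4.11-fold higher, with 388 to 547 CPM elsewhere. In neutrophils it was 462 and 1575 CPM (3.38-fold), in macrophages 107 and 259 CPM (2.35-fold), and in B cells, where it headed the higher genes, 72.5 and 403 CPM (log2 ratio 2.40, interval 1.89 to 3.12). Control and 2DG intervals were apart in each of these classes.

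The guanylate-binding proteins, GTPases that act against intracellular pathogens, followed. Gbp2 was at 255 CPM in control and 1154 in 2DG neutrophils (4.47-fold), 229.8 and 469 in monocytes (2.02-fold) and 185 and 459 in macrophages (2.44-fold). Gbp5, which promotes inflammasome assembly, was at 44.6 and 309.7 CPM in neutrophils (6.34-fold) and 55.8 and 169 in monocytes (2.86-fold). Gbp4 was among the 4 neutrophil genes with the highest ratio, at 3.08 and 96.2 CPM. The Gbp genes have near-identical copies, so the split of reads among them is uncertain.

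Cxcl9 and Cxcl10, which draw CXCR3-bearing T cells, were higher with 2DG in all 3 myeloid classes. Cxcl9 was at 376 CPM (95% interval 367 to 386) in control macrophages and 1038 CPM (1021 to 1056) with 2DG, 2.74-fold higher (1006 to 1388 CPM in the other libraries). In monocytes it was 86.6 and 235 CPM, where the 2DG value lay below the 384 to 594 CPM of the other treated mice. Cxcl10 was 2.92-fold higher in macrophages (104 and 313 CPM) and 5.29-fold higher in neutrophils (82.3 and 457 CPM). With classes taken from Leiden clusters (groups of cells with similar expression) both were within 2-fold in macrophages. The log2 ratios were then 0.59 for Cxcl9 and 0.98 for Cxcl10.

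Many genes induced by interferon-gamma carry GAS elements (gamma-activated sequences). Both strands of promoter windows (250 bases before to 50 after the start, RefSeq, GRCm38.p6) were searched for TTCNNNGAA. It was found in 9 of the 17 listed genes with a window, 52.9%, and in 9.55% of all 27025 genes with a window. The windows of 2 genes are shown because both genes were past 2-fold in neutrophils, monocytes and macrophages, with the matches in capitals. The Irf1 match lies 90 bases before the start, and the Gbp5 matches 245 and 52 bases before it. A match describes the letters only.
Irf1 (chr11:53769764-53770063, plus strand): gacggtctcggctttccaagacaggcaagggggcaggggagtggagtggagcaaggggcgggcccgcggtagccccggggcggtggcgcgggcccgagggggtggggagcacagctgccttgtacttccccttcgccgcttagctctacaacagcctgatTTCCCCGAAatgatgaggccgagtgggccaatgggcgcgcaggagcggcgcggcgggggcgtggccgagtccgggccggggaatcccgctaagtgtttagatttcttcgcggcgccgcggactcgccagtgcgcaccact
Gbp5 (chr3:142496684-142496983, plus strand): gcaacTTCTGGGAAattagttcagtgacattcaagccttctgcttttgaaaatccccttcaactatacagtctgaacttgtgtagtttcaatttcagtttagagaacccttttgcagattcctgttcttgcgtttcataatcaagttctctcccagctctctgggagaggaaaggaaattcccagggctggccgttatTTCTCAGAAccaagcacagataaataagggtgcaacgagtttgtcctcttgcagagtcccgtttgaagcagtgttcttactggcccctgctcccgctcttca

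Genes stimulated by type I interferon differed less than the interferon-gamma-induced genes in monocytes, macrophages and neutrophils, but not in T, NK and B cells. All 28 listed genes compared in monocytes had a log2 ratio above 0 and 9 were past 2-fold higher (median 0.84), as were 7 of 28 in macrophages (median 0.65) and 6 of 25 in neutrophils (median 0.65). In T cells the median was 0.17, with 1 of 27 past 2-fold higher, against a median of -0.04 for interferon-gamma-induced genes. Few genes were compared in NK and B cells. In NK cells 2 of 6 were higher (median 0.77, against -0.09 for interferon-gamma-induced genes). In B cells 2 of 4 were higher (median 1.26, against 0.77). The background for higher was 3.86% in monocytes, 1.11% in macrophages, 6.62% in neutrophils, 0.33% in T cells, 7.86% in NK cells and 2.01% in B cells.

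MHC class II genes were higher with 2DG in monocytes and macrophages. In monocytes 6 of 11 class II presentation genes were past 2-fold higher and none of them lower (median 1.54), and their summed level was 3877 CPM in the control, 10819 with 2DG and 8817 to 13283 in the other libraries. In macrophages 7 of 11 were higher (median 1.12), and the sums were 11268 and 24648 CPM, with 19221 to 27184 CPM elsewhere. Dendritic cells and B cells, which carry MHC class II constitutively, had none past 2-fold, with medians of -0.04 and 0.05 (background in B cells 2.01% and 1.67%).

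Ciita (chr16:10480059-10528418, plus strand), the coactivator of class II genes, was at 27.0 CPM (95% interval 24.95 to 29.1) in control and 153 CPM (146 to 160.5) in 2DG monocytes, 4.95-fold higher, with 108 to 152 CPM in the other libraries. In macrophages it was 82.5 and 253 CPM (2.95-fold), and here 2DG was the highest of the 6 libraries (others 145 to 242). H2-Ab1, a class II beta chain, was at 419 and 1591 CPM in monocytes (3.76-fold) and 1575 and 4031 CPM in macrophages (2.55-fold). Its partner chain H2-Aa was 4.55-fold higher in monocytes (323 and 1486 CPM) and 2.42-fold higher in macrophages (1506 and 3648 CPM). Cd74, the invariant chain that escorts class II proteins, was 3.50-fold and 2.17-fold higher in the same classes. With Leiden classes these genes were within 2-fold in macrophages. Their log2 ratios were then 0.79 for Ciita, 0.54 for H2-Ab1, 0.45 for H2-Aa and 0.34 for Cd74.

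In neutrophils class II genes were split. H2-Aa was at 53.8 CPM in control and 21.1 in 2DG neutrophils (20 UMIs). Of 7 class II genes compared 1 was past 2-fold higher and 2 lower (background 6.62% and 5.65%, median -0.26). The sum of the list was 447 CPM in the control and 568 with 2DG (others 508 to 1132). MHC class I genes present antigen to CD8 T cells. In neutrophils 9 of 13 class I presentation genes were past 2-fold higher (median 1.29), against 1 of 13 in monocytes (median 0.50), 1 in macrophages (median 0.72) and 3 of 12 in B cells (median 0.80). H2-K1, a class I heavy chain, was at 364 and 943 CPM in neutrophils, Psmb8, an immunoproteasome subunit, at 63.0 and 236, and the peptide transporter Tap1 at 73.7 and 187. H2 genes resemble one another closely, so single H2 values carry that uncertainty. Markers of other cells moved with the interferon, class I and hypoxia results in neutrophils. The 10 monocyte markers summed to 361 CPM in the control and 676 CPM with 2DG (others 675 to 799.6), with 0 and 1 of them undetected, and the 8 T cell markers, all detected, to 15.4 and 61.3 CPM (others 45.4 to 136). Their part in these results was not tested.

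The class II promoters share an upstream module whose Y box is an inverted CCAAT. CTGATTGG was found on either strand in 3 of 8 listed class II genes with a window (37.5%) and in 4.70% of all genes with a window. The H2-Aa window holds 1 match, 51 bases before the start, in capitals.
H2-Aa (chr17:34287774-34288073, minus strand): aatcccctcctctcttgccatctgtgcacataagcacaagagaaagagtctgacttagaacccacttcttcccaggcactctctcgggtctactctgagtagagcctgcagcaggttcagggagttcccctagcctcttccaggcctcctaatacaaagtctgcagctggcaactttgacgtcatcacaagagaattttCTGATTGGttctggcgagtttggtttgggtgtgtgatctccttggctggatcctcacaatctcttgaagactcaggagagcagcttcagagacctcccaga

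Hypoxia genes were lower with 2DG in neutrophils and monocytes, and fewer of them in macrophages. In neutrophils 14 of 18 listed genes were past 2-fold lower (median -1.25), in monocytes 13 of 19 (median -1.06) and in macrophages 6 of 19 (median -0.76), with none higher in any of them. With classes taken from Leiden clusters (groups of cells with similar expression) the macrophage median was above 0, at 0.17. The summed level was 7888 CPM in control neutrophils and 2337 with 2DG (others 2349 to 3786), and 5413 and 1820.4 CPM in monocytes (others 1803 to 2559.7). Dendritic cells had 5 of 17 lower and T cells 3 of 18, with medians of -0.38 and -0.49. After thinning, 4 of the genes could be compared in dendritic cells and their median was 0.25. The background for lower was 5.65% in neutrophils, 3.26% in monocytes, 1.56% in macrophages, 0.832% in dendritic cells and 1.1% in T cells.

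Hilpda (chr6:29272488-29275446, plus strand), which blocks lipolysis in lipid droplets under low oxygen, was among the 4 genes with the lowest ratio in neutrophils and in monocytes. It was at 703 CPM (95% interval 693 to 714) in control monocytes and 71.1 CPM (66.4 to 76.1) with 2DG, 9.31-fold lower, below the 112 to 195 CPM of the other libraries. In neutrophils it was 1748 and 182 CPM (9.38-fold lower, others 293 to 528) and in macrophages 533 and 116 CPM (4.46-fold lower). The 2DG library had the lowest Hilpda level of the 6 libraries in all 3 classes.

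Bnip3, a mitophagy receptor, was at 464 CPM in control and 82.4 in 2DG neutrophils (5.36-fold lower), 308 and 66.4 in monocytes (4.38-fold) and 256 and 105 in macrophages (2.38-fold). Ero1l, an oxidase of the endoplasmic reticulum that HIF induces, was 4.69-fold, 5.49-fold and 3.07-fold lower in neutrophils, monocytes and macrophages. Vegfa, the angiogenic growth factor, was at 325 and 77.0 CPM in monocytes (4.02-fold lower) and 215 and 98.3 in neutrophils (2.13-fold).

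Glycolysis genes were lower in neutrophils and monocytes, not in macrophages. In neutrophils 6 of 20 were past 2-fold lower (median -0.81) and in monocytes 8 of 23, with 1 higher (median -0.76), whereas in macrophages 1 of 24 was lower (median -0.04). Among all genes 5.65%, 3.26% and 1.56% were lower in these classes, and 3.86% were higher in monocytes. The differences between these classes were not tested. Ldha, which makes lactate, was at 902 and 255 CPM in neutrophils (3.49-fold lower) and 711 and 338 in monocytes (2.09-fold). Slc2a1, the glucose importer GLUT1, was at 528 and 183 CPM in monocytes (2.83-fold lower). The exception was Eno3, the muscle type of enolase, at 5.10 and 58.2 CPM in monocytes, 1 of the 4 genes with the highest ratio there. In T cells, dendritic cells, NK cells and B cells the glycolysis medians lay between -0.12 and 0.30.

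HIF binds ACGTG. It was present on either strand in 12 of 16 listed hypoxia genes with a window (75.0%) and in 21.8% of all genes with a window. The Bnip3 window is shown because the gene was past 2-fold lower in neutrophils, monocytes and macrophages. Its capitals mark 2 overlapping matches, 1 per strand, 108 and 107 bases before the start.
Bnip3 (chr7:138909457-138909756, minus strand): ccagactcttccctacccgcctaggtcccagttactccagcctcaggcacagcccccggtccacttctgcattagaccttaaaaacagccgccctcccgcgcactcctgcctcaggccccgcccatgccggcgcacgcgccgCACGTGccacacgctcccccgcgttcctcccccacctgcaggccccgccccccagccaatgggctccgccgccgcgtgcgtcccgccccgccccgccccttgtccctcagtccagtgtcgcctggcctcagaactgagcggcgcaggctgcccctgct

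Chemokines were split, with Cxcl2, Cxcl3 and Ccl2 lower with 2DG in monocytes and macrophages and Cxcl9 and Cxcl10 higher. In monocytes 10 of 18 chemokines were past 2-fold lower and 4 higher (median -1.44), and in macrophages 6 were lower and 5 higher of 17 (median -0.58, and 0.09 with Leiden classes). Of all genes 3.26% were lower and 3.86% higher in monocytes, and 1.56% and 1.11% in macrophages. Cxcl3 (chr5:90786103-90789600, plus strand), a ligand of the neutrophil receptor CXCR2, had the lowest ratio among the genes eligible for naming in both classes. It was at 1061 CPM (95% interval 1048 to 1074) in control monocytes and 18.6 CPM (16.2 to 21.3) with 2DG, 45.1-fold lower, and 36.8 to 122 CPM in the other libraries. In macrophages it was 784 and 32.9 CPM (20.8-fold lower) and in neutrophils 3719.5 and 446 CPM (8.26-fold lower).

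Cxcl2, another CXCR2 ligand, was at 5174 and 796 CPM in monocytes (6.46-fold lower) and 3870.0 and 1185 in macrophages (3.26-fold lower), the lowest level of the 6 libraries in both. In neutrophils it stayed within 2-fold (log2 ratio -0.81). Ccl2, which recruits CCR2-bearing monocytes, was 6.07-fold lower in monocytes (1176 and 189.5 CPM) and 3.29-fold lower in macrophages. Ccl5, a T cell chemokine, went the other way, from 36.5 to 221 CPM in monocytes and from 86.6 to 504 in macrophages. Ccl8 was among the 4 macrophage genes with the highest ratio, at 103 and 556 CPM.

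The kappa B element GGAATTTCC, an NF-kappa B binding sequence, was present in 4 of 13 listed chemokines with a window (30.8%). It was present in 0.381% of all genes with a window. The 4 chemokines were Cxcl1, Cxcl2, Cxcl3 and Cxcl10, and Cxcl10 was higher with 2DG in neutrophils, monocytes and macrophages. The Cxcl2 and Cxcl3 windows hold the element 96 and 72 bases before the start.
Cxcl2 (chr5:90903649-90903948, plus strand): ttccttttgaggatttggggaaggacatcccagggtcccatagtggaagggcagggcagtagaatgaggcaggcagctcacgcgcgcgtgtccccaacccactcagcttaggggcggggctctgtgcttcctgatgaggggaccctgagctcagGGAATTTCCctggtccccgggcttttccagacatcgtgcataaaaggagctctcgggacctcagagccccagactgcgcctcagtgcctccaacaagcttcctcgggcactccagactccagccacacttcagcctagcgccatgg
Cxcl3 (chr5:90785851-90786150, plus strand): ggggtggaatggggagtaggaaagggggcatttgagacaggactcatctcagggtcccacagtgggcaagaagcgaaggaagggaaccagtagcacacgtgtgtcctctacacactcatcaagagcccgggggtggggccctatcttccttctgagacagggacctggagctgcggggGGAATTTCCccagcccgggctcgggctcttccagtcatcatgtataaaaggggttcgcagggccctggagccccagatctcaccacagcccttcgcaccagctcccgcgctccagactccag

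Suppressor genes of tumor myeloid cells were lower, most of all in monocytes. Of 22 compared, 12 were past 2-fold lower and 1 higher (background 3.26% and 3.86%, median -1.29). The sum was 18364 CPM in the control and 5122 with 2DG. Of the 24 listed genes 5 are gate markers (Chil3, Gpnmb, Mrc1, Spp1 and Trem2), so their level also moves with how cells were assigned. Arg1 (chr10:24915221-24927484, minus strand), which is no marker and depletes arginine that T cells need, was at 5164 CPM (95% interval 5135 to 5192) in control and 1081 CPM (1062 to 1099.8) in 2DG monocytes, 4.76-fold lower, with 998 to 2028 CPM in the other libraries. In macrophages it stayed within 2-fold, at 5059 and 3707 CPM.

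Nos2 was at 477 and 98.6 CPM in monocytes (4.65-fold lower), below the other libraries (120.0 to 324). It was the single interferon-gamma-induced gene past 2-fold lower in monocytes. Ptgs2, the prostaglandin synthase COX-2, was at 666 and 71.0 CPM in monocytes (8.82-fold lower) and 445 and 92.9 in macrophages (4.59-fold). Thbs1, a matrix glycoprotein that blocks angiogenesis, was 4.28-fold and 3.92-fold lower in these classes (log2 ratio 0.18 in macrophages with Leiden classes), and Mt2, a metallothionein, 11.4-fold and 5.13-fold lower. At the other end, Dpp4, a surface peptidase, was at 5.43 and 65.1 CPM in monocytes, Grk3, a receptor kinase, at 29.4 and 190.4, and Ccdc88c at 17.4 and 119.6.

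**Figure D3:**
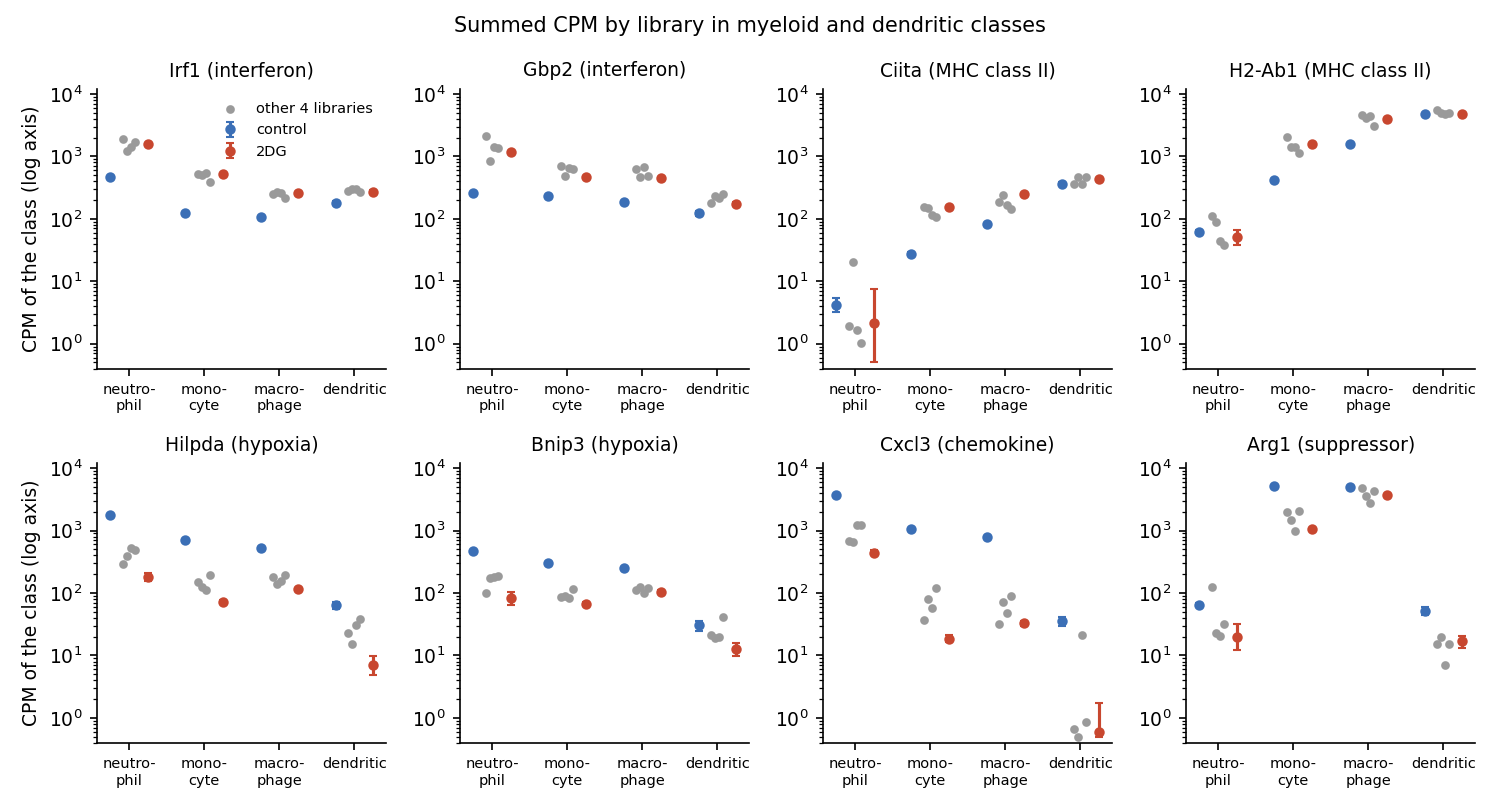
CPM (log axis) of 8 genes in neutrophils, monocytes, macrophages and dendritic cells, with 1 point per library: control blue, 2DG red, the other 4 grey, and values under 0.5 CPM drawn at 0.5. In monocytes the control has the lowest Irf1 (123 CPM) and the highest Hilpda (703 CPM) of the 6 libraries, and the 2DG points are at 523 and 71.1 CPM.

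**Figure D4:**
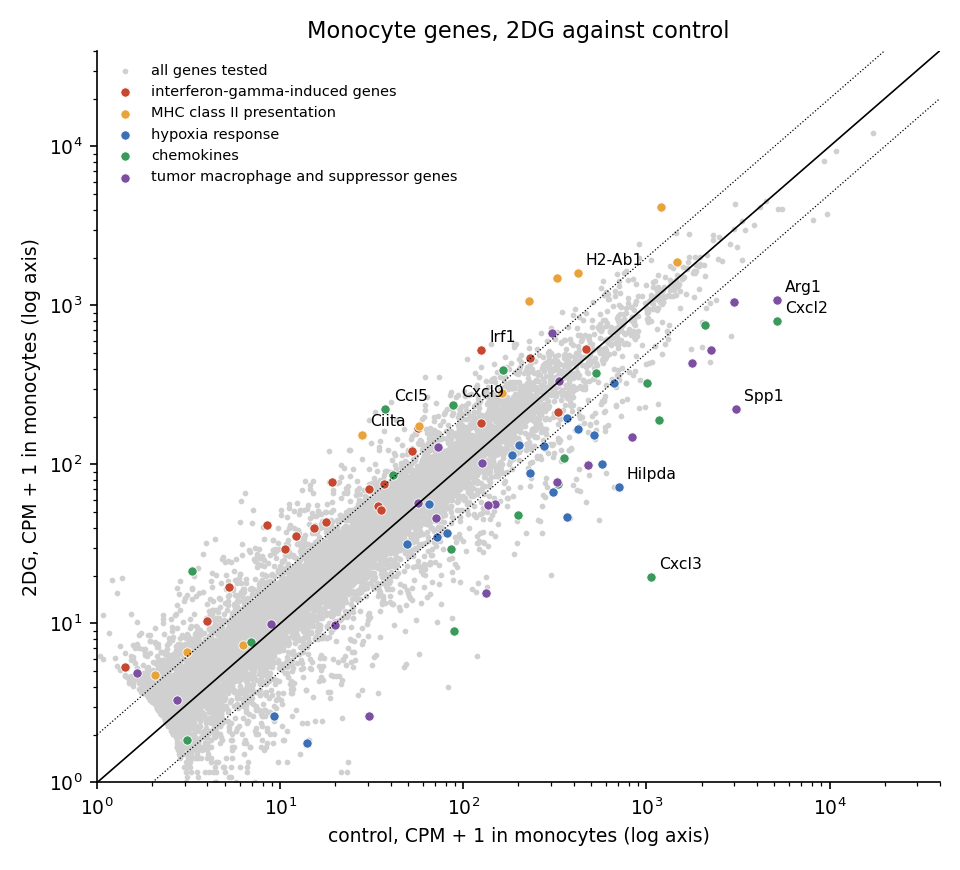
CPM + 1 of each gene compared in monocytes, control on the x axis and 2DG on the y axis, both log, with a solid line of equal levels and dotted lines at 2-fold. Colored lists fall on opposite sides: MHC class II and interferon-gamma-induced genes above the line (6 of 11 and 15 of 24 past 2-fold higher), and hypoxia, chemokine and suppressor genes mostly below it (13 of 19, 10 of 18 and 12 of 22 past 2-fold lower).

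Monocytes themselves differed in kind. Non-classical monocytes, the patrolling type marked by Ace, Adgre4 and Treml4, were 34.5% of 2DG monocytes (32.1 to 36.9%) and 6.75% of control monocytes (5.799 to 7.799%), with 16.3 to 26.8% in the other libraries. Classical monocytes, called here by Ly6c2 and Chil3, were 53.3% and 82.7%. Over all monocytes these 2 markers went opposite ways. Chil3 was at 1769 CPM in the control and 431 with 2DG, and Ly6c2 at 143 and 342. Their part in the subset shares was not tested. With every cell thinned to 1000 UMIs the non-classical shares were 23.7% and 3.79%. Not all of the differences above were as large within 1 subset. Within classical monocytes alone, 386 of 10750 genes were past 2-fold higher (3.59%) and 337 lower (3.13%), with 16 of 23 interferon-gamma genes higher, 6 of 10 class II genes higher and 10 of 19 hypoxia genes lower, but 2 of 23 glycolysis genes lower. In that subset Irf1 was 3.68-fold higher, H2-Ab1 4.42-fold higher, Hilpda 8.58-fold lower and Cxcl3 33.6-fold lower. Non-classical monocytes had 10 of 21 interferon-gamma genes higher and 8 of 17 hypoxia genes lower (background 2.59% and 3.08%), but 1 of 8 class II genes higher (median 0.43, against 1.80 in classical monocytes). In this subset 6 of 20 glycolysis genes were lower and 1 higher.

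Macrophage markers moved with these results in monocytes, summing to 5277 CPM in the control and 2131 CPM with 2DG (others 2472 to 2803), and neutrophil markers to 479 and 169 CPM. Their part in the results was not tested. When monocytes and macrophages were pooled, 218 of 12879 genes were higher (1.69%) and 219 lower (1.7%), and 16 of 24 interferon-gamma genes and 7 of 11 class II genes were higher and 9 of 19 hypoxia genes lower. Of 24 glycolysis genes 1 was lower and 1 higher. In the pool Arg1 was 2.08-fold lower (5122 and 2457 CPM) and Spp1 5.20-fold lower (3663 and 701 CPM).

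Spp1 (osteopontin) and Gpnmb are markers of lipid-laden tumor macrophages. A macrophage was called by at least 10 UMIs of both genes together per 10000, which either gene alone could reach. Cells so called were 57.2% of control macrophages (54.7 to 59.7%) and 23.2% with 2DG (21.0 to 25.5%), against 18.2 to 33.6% in the other libraries. This difference depended on how classes were made, since with classes taken from Leiden clusters it was 0.00404 percentage points. Those classes divide monocytes from macrophages differently and also leave out clusters that got no name. Which of these mattered was not tested. Spp1, which held most of the UMIs behind this share, was at 4515 and 1136 CPM in macrophages (3.96-fold lower). Gpnmb was at 73.5 and 5.94 CPM. The share is called from these genes, so their levels are no separate result. The Leiden classes also gave macrophage log2 ratios above 0 for Spp1 (0.13), Arg1 (0.90) and Thbs1 (0.18), and medians above 0 for the hypoxia (0.17), suppressor (0.08) and chemokine (0.09) lists. With them the macrophage medians were 0.78 for interferon-gamma-induced and 0.34 for class II genes, and the log2 ratio was -0.57 for Hilpda, -0.02 for Bnip3, -0.45 for Ptgs2, -0.37 for Cxcl2, -0.49 for Ccl2 and -1.31 for Cxcl3. In monocytes and macrophages pooled, which do not depend on the division, the Leiden classes gave medians of 1.13 (interferon-gamma) and 1.56 (class II). In that pool the medians were -0.98 for hypoxia, -0.70 for suppressor and -0.48 for chemokine genes, and the log2 ratios -2.43 for Spp1 and -1.06 for Arg1.

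Among other macrophage genes, Pdcd1lg2, which encodes the PD-1 ligand PD-L2, was at 20.4 and 124 CPM (5.08-fold higher), with 127 to 228 CPM in the other libraries. Ifitm1, an interferon-induced membrane protein, was at 188 and 1327 CPM (6.89-fold), and H2-Eb2, a class II gene outside the list, at 1.28 and 32.8. Tcof1 was also among the 4 genes with the highest ratio. With Leiden classes the log2 ratios of these genes were 2.17, 2.66, 2.49 and 2.02. The lowest ratios after Cxcl3 were those of Inhba, an activin subunit (315 and 47.3 CPM), Nrg4, a growth factor (42.8 and 3.24), and Mt2, which were within 2-fold with Leiden classes (-0.22, -0.50 and -0.80). Other markers moved with the macrophage results. Between control and 2DG, the 10 monocyte markers summed to 2664 and 1503 CPM, the 8 neutrophil markers to 227 and 78.04 CPM, both with all markers detected, and the 5 platelet markers, 1 of them at 0 in both, to 722 and 191 CPM (others 1669 to 1903, 75.9 to 84.6 and 172 to 285). Their part in the results was not tested. Complement and resident macrophage genes stayed near equal, with 1 of 14 higher, 1 lower (background 1.11% and 1.56%) and a median of 0.11 (-0.32 with Leiden classes). Of the listed genes 4 are gate markers (Apoe, C1qa, C1qb and C1qc), so their level also moves with how cells were assigned. Of 20 cell cycle genes, 19 were below 0 in macrophages (median -0.41, none past 2-fold), while in monocytes 14 of 17 were above 0 (median 0.72).

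Neutrophils were few with 2DG, at 298 cells and 946081 UMIs, so low counts there carry wide intervals. Granule genes, made early in neutrophil maturation, were higher, 6 of 11 past 2-fold and none of them lower (background 6.62% and 5.65%, median 1.72). Their sums, 2483 CPM in the control and 5924 with 2DG, both lay within the range of the other libraries (955 to 8495 CPM). Ngp was at 68.4 CPM in control and 1358 with 2DG, lactoferrin (Ltf) at 51.2 and 573, and the cathelicidin Camp at 20.8 and 398. These UMIs came from few cells. With 2DG, Ngp was detected in 21 cells, Camp in 11 and Ltf in 24, and in the control in 136, 39 and 176, and the other libraries ranged from 39.5 to 2236 CPM for Ngp. With Leiden clusters as classes, the log2 ratios of all 3 were below 0, at -1.01 for Ngp, -3.64 for Camp and -1.74 for Ltf. The median of the granule list was then -0.298.

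Among other neutrophil genes, Cadm4, an adhesion molecule, was at 10.6 and 217 CPM and above the other libraries (67.6 to 102). P2rx7, an ATP-gated channel, had 1887 UMIs in the control and 2 with 2DG (log2 interval of the CPM ratio -9.08 to -4.18), and Gpsm1 1160 and 3 (-7.03 to -3.20). Commd10 was the other gene in this group of 4. Ccl3, a chemokine that neutrophils release, was at 3094 and 1177 CPM (2.62-fold lower), below the 2048 to 2936 CPM elsewhere. The inflammatory output list as a whole was split, with 4 genes higher and 3 lower of 23 (background 6.62% and 5.65%). All 13 mitochondrially encoded respiratory genes were above 0 in neutrophils (median 0.56), as were 66 of 73 nuclear ones (median 0.47).

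Within T cells the subsets differed too. CD8 T cells were 50.2% of 2DG T cells (48.3 to 52.2%) and 29.3% of control T cells (24.6 to 34.3%), and 59.3 to 67.9% in the other libraries. Regulatory T cells, marked by Foxp3, were 13.6% (12.29 to 14.98%) and 20.7% (16.7 to 25.3%). There were therefore 3.70 CD8 T cells per regulatory T cell with 2DG (3.28 to 4.17) and 1.41 in the control (1.04 to 1.93), against 5.26 to 15.3 elsewhere. On these measures 2DG lay between the control and the other 4 libraries. After thinning to 1000 UMIs per cell the CD8 shares were 37.5% and 22.6%, and the regulatory shares, 2.55% and 3.23%, had overlapping intervals (1.87 to 3.40% and 1.31 to 6.53%).

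Most effector genes stayed within 2-fold across all T cells, but the share past 2-fold higher exceeded that of all genes. Of 21 activation and cytotoxicity genes 4 were past 2-fold higher and none lower (background 0.33% and 1.1%), with 14 above 0 and 7 below it (median 0.35), and their sum was 7452 CPM in the control, 10907 with 2DG and 11685 to 16263 in the other libraries. Gzma, a granzyme, was at 52.4 and 142 CPM (2.57-fold higher), and Gzmb, the main killing protease, at 166 and 271 CPM, within 2-fold. Cd160, which is on the list of inhibitory receptors and not on this one, was at 21.6 and 52.8 CPM (2.18-fold). In CD8 T cells alone Gzmb was 409 and 429.6 CPM and the pore protein Prf1 372 and 364. The CD8 list had 4 of 21 higher (background 1.47% and 1.14%), with a median of 0.07. With cells thinned to 1000 UMIs the median of the list in all T cells was -0.01.

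Of those CD8 genes, Ifng was 2.10-fold higher and Xcl1, a chemokine for XCR1-bearing dendritic cells, 2.20-fold higher (44.3 and 103 CPM). Gzmc had 3 and 195 UMIs (log2 interval of the CPM ratio 0.84 to 4.70). Gzmf had no UMI in the 106 control CD8 T cells and 344 with 2DG, 9.36-fold higher taking 3 counts as the floor of the control library (lower end of the exact log2 interval 2.92), but these UMIs came from 6 of 1297 cells.

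Genes of naive and memory T cells were lower in CD8 T cells with 2DG. All 10 compared were below 0 and 5 were past 2-fold lower (median -0.96), although after thinning 3 genes were left to compare and their median was 0.42. Lef1, a transcription factor of naive cells, was at 282 and 116 CPM (2.37-fold lower), and Il7r, the survival receptor for interleukin-7, at 215 and 81.2 (2.55-fold). Il7r was also among the 4 lowest genes in all T cells, at 442 CPM (95% interval 417 to 469) and 137 CPM (131 to 142), where 2DG lay below every other library (166 to 288). Tcf7, which keeps progenitor CD8 T cells, stayed within 2-fold (75.3 and 44.1 CPM).

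CD4 T cells outside the regulatory subset had 99 of 8437 genes past 2-fold higher (1.17%) and 78 lower (0.924%), and regulatory T cells 97 (1.41%) and 92 (1.34%) of 6857. Gzmb in CD4 T cells was at 19.6 and 65.0 CPM (2.85-fold higher), and 4 of 20 activation genes were past 2-fold higher there. In regulatory T cells 4 of 13 cholesterol synthesis genes were past 2-fold higher (median 0.62) and 2 of 15 activation genes, with 1 lower.

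Inhibitory receptors stayed close. Pdcd1, which encodes PD-1, was at 209 CPM (95% interval 192 to 227) in control and 192 CPM (186 to 198) in 2DG T cells (log2 ratio -0.12, interval -0.25 to 0.01), and 183 and 186 CPM in CD8 T cells. Havcr2 (TIM-3) was at 309 and 207 CPM there and Tox, a regulator of exhaustion, at 1533 and 1631. Of 12 receptors and exhaustion genes none was past 2-fold in CD8 T cells (median -0.10), and in all T cells only Cd160 was.

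**Figure D5:**
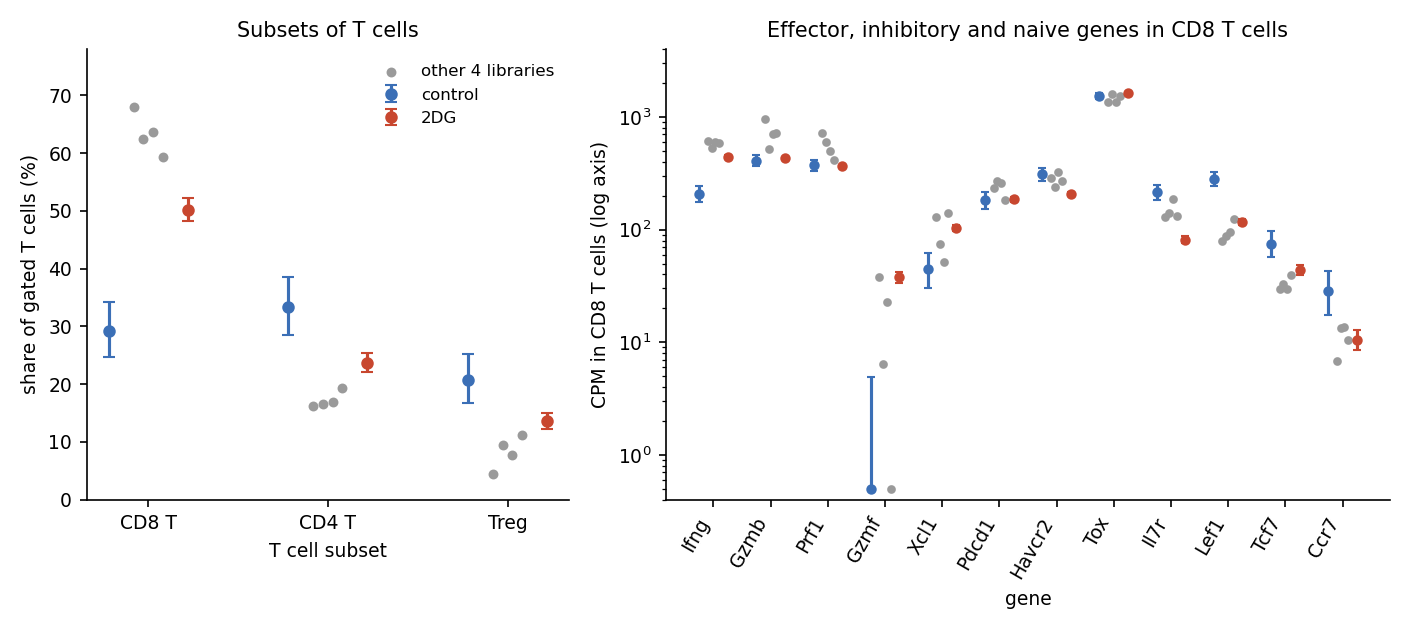
Left, share of T cells (percent) in each subset for the 6 libraries with exact 95% intervals. Right, CPM (log axis) of 12 genes in CD8 T cells, control blue, 2DG red, others grey, values under 0.5 CPM drawn at 0.5, where Ifng is higher with 2DG (208 to 444 CPM), Lef1 and Il7r are lower, and Pdcd1 is close (183 and 186 CPM).

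The T cell genes with the highest ratios were Apol8, an apolipoprotein L (3.85 and 34.5 CPM), Itgad, an integrin alpha chain (7.32 and 42.4), Astl (4.24 and 23.9) and Trim69 (3 and 223 UMIs, log2 interval of the CPM ratio 1.86 to 5.71). Itgad with 2DG lay above every other library (15.2 to 24.6 CPM). Slc15a2, a peptide transporter, was at 60.1 and 15.4 CPM, Ston1 at 25.4 and 4.90, and Coch at 16.2 and 1.89. Neutrophil markers in T cells summed to 161 CPM in the control and 22.4 CPM with 2DG (others 16.3 to 20.9), all 8 of them higher in the control, and Cxcl2 in T cells followed (411 and 18.0 CPM). The part of free RNA from neutrophils in such genes was not tested.

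NK cells were compared from 22 control cells with 132813 UMIs, so counting error was wide. Gzmb was level, at 2590.1 and 2601 CPM, and Prf1 was at 1378 and 1956 CPM (log2 ratio 0.50, interval 0.29 to 0.73). Klra1, a Ly49 receptor, had no control UMI and 137 with 2DG, 3.94-fold higher over a floor of 3 control counts (lower end of the exact log2 interval 1.66), although near-identical Klra genes make its reads uncertain. Simc1, Dclre1c and Rad51b, the latter 2 of DNA repair, also had no control UMI and were 2.94-fold, 2.50-fold and 2.33-fold higher over the same floor (lower ends 1.23, 0.995 and 0.89). The folds over this floor are not lower bounds, which the lower ends give. Slc7a5, an amino acid transporter that activated lymphocytes raise, was at 120.5 and 22.1 CPM (16 and 34 UMIs), and Tdrd3 and Nt5e (the ectoenzyme CD73) had 19 and 19 control UMIs. Of 16 activation genes 2 were past 2-fold higher (background 7.86% and 2.71%).

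In B cells (63 and 109) heat shock genes were lower with 2DG. Of 12 compared 6 were past 2-fold lower and none higher (background 1.67% and 2.01%, median -1.03). Hspa1b was at 1279.5 CPM (95% interval 1165 to 1402) in the control and 232 CPM (195 to 273) with 2DG (5.42-fold lower), Dnajb1, a co-chaperone of HSP70, at 519 and 109 CPM, and Hsph1 at 951 and 210.5 CPM. In the other libraries Hspa1b was 3.39 to 102 CPM, so both the control and 2DG exceeded them. Higher beside Irf1 were Pola1, a DNA polymerase subunit (5 and 45 UMIs), and Bcr (8 and 49 UMIs). Erythroid markers in B cells summed to 4998 CPM in the control and 3.29 CPM with 2DG (others 6.05 to 1563), and the part of this in the B cell results was not tested. Cd83, an activation marker, was at 1572 and 694 CPM, and B cell function genes had none higher and 1 lower of 13.

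Dendritic cells had the smallest share of genes past 2-fold among the myeloid classes. Type 1 conventional cells, which cross-present antigen, were 24.0% of control and 24.7% of 2DG dendritic cells, type 2 cells 43.9% and 45.8%, and mature cells 31.7% (26.4 to 37.4%) and 25.8% (21.5 to 30.5%), with overlapping intervals. Plasmacytoid cells were 1 of 287 (0.348%, 0.00882 to 1.93%) and 14 of 384 (3.65%, 2.01 to 6.04%), against 3.56 to 5.03% in the other libraries. None of 20 maturation genes was past 2-fold, but 4 of them (Cacnb3, Ccl22, Ccr7 and Fscn1) are gate markers of dendritic cells.

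Heat shock genes were lower with 2DG in dendritic cells as well, 5 of 13 past 2-fold (background 0.832%, median -0.55). Past 2-fold lower were also 4 of 12 in NK cells (background 2.71%) and 5 of 14 in macrophages (1.56%). In neutrophils 4 of 13 were lower (5.65%, median 0.01), in T cells 2 of 13 (1.1%) and in monocytes none of 14 (3.26%). In dendritic cells Hspa1a was at 705 and 238 CPM (2.93-fold lower) and Bag3, an HSP70 co-chaperone, at 184 and 42.3 CPM (4.01-fold lower). Cholesterol synthesis genes were higher, with all 19 compared above 0, 2 past 2-fold (median 0.65), and sums of 749 CPM in the control, 1161 with 2DG and 867 to 1094 in the others. Fdps, which makes farnesyl diphosphate, was at 37.9 and 96.1 CPM (2.36-fold higher), and Mvd, the mevalonate decarboxylase, at 5.79 and 18.0. The highest ratios were those of Prkca (protein kinase C alpha, 18.9 and 111 CPM), Serpinb1a, a protease inhibitor (8.94 and 62.5), Grm8, a glutamate receptor (4.21 and 38.7), and Cyp7b1, an oxysterol hydroxylase (42.9 and 179). These UMIs came from a minority of the 287 control and 384 2DG cells. Grm8 was detected in 4 and 20 of them, Cyp7b1 in 18 and 44, Serpinb1a in 17 and 64 and Prkca in 27 and 82. Low ratios were those of Sult1a1 (46.3 and 9.41) and Arrdc3 (58.9 and 13.6).

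Cholesterol synthesis was also above equality in macrophages, where all 20 genes were above 0 and 2 past 2-fold (sum 352 and 614 CPM, others 459.9 to 616), and in T cells, where 19 of 20 were above 0. In T cells the 2DG sum, 615 CPM, lay above the control (429.9) and the others (384 to 540.3). Cyp51, which demethylates lanosterol, was at 17.1 and 46.0 CPM in macrophages and 29.6 and 67.9 in CD8 T cells.

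Few genes moved the same way across most classes. Of 7272 genes compared in at least 5 of the 7 classes, 1 was past 2-fold higher in at least 5 (0.0138%) and 12 were lower in at least 5 (0.165%). The higher one was Ly6a (Sca-1; chr15:74994877-74998031, minus strand), an interferon-inducible surface protein, with log2 ratios from 0.40 in T cells to 3.15 in neutrophils. The lower ones were Cxcl3, Hilpda, Cxcl2, Mt2, Spp1, Bnip3, Hspa1a, Slc15a2, Hspa1b, Sgms2 (sphingomyelin synthase 2), Hsph1 and Hmox1 (heme oxygenase 1). Hmox1 ranged from a log2 ratio of -1.01 in T cells to -2.45 in monocytes, and Slc15a2 from -1.12 in neutrophils to -2.07 in B cells. Hspa1a and Hspa1b were lower in 6 classes and above 0 in monocytes (0.29 and 0.34), and as near-identical copies they share reads.

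Several of these are myeloid genes whose level in T cells was small beside that in their main class. In T cells Cxcl2 was at 1.495%, Cxcl3 at 1.69%, Hilpda at 4.32% and Bnip3 at 6.89% of the highest class of the library where the gene was higher. In dendritic cells the same values were 1.24%, 0.948%, 3.67% and 6.52%. Whether free RNA carried them into these classes was not tested.

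RNA of the N-glycan pathway that 2DG acts on differed little. Genes of N-glycan precursor assembly had medians between -0.05 and 0.13 over the 7 classes. None was past 2-fold in T cells, B cells, monocytes, macrophages or dendritic cells (background at most 3.86% higher and 3.26% lower). In neutrophils 2 of 23 were higher and 1 lower (background 6.62% and 5.65%). In NK cells 1 of 17 was higher and none of them lower (background 7.86% and 2.71%). Genes of N-glycan branching and hexosamine supply had medians between -0.18 and 0.11. Past 2-fold was 1 gene, lower, of 13 compared in neutrophils (background 5.65%). Mgat5 (chr1:127205015-127488336, plus strand), which starts the beta-1,6 branch, was at 279.7 CPM (95% interval 259.7 to 301) in control T cells and 243 CPM (236 to 250.3) with 2DG (log2 ratio -0.20, interval -0.32 to -0.09). It was at 353 and 259 CPM in CD8 T cells, 195 and 199 in monocytes, 263 and 271 in macrophages and 51.8 and 73.3 in dendritic cells. RNA levels do not measure the glycans themselves.

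Genes of the unfolded protein response, which underglycosylated proteins can trigger, were mostly above equality in T cells (20 of 24, median 0.20) and below it in neutrophils (20 of 24, median -0.35) and monocytes (20 of 25, median -0.27). Past 2-fold were none in T cells, 3 of 24 in neutrophils (12.5%) and 1 of 25 in monocytes (4%), all lower. Of all genes 1.1%, 5.65% and 3.26% were lower in these classes.

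Cd274 (chr19:29367455-29388095, plus strand), which encodes PD-L1, the glycoprotein that anti-PD-L1 binds, stayed within 2-fold in all 7 classes. It was at 469 CPM (95% interval 461 to 478) in control and 530.4 CPM (517 to 544) in 2DG monocytes, 332 and 464 CPM in macrophages, 1368 and 1503 in neutrophils, 649.7 and 716 in dendritic cells and 135 and 123 in T cells. In macrophages the interval of its log2 ratio (0.43 to 0.54) excluded equal levels, and the other libraries held 431 to 699 CPM.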

How the data were processed

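Single-cell suspensions were loaded on the 10x Chromium 3′ v3 platform. For each library a filtered matrix of raw UMI counts was deposited, with genes in rows and barcodes in columns. Their methods give Cell Ranger 7.0.0 with the mm10 2020-A reference, which the file headers repeat, whereas the submitters' processing notes name Cell Ranger 3.1.0. Groups came from the sample labels, and 30 barcodes were shared by the control and 2DG libraries. Counts were analysed in Python 3.11.15 with numpy 2.4.6, scipy 1.17.1, pandas 2.3.3 and scanpy 1.11.5, and the scripts were tested on simulated data.

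Marker scores per cell were scaled to cells with at least 5 markers of the lineage, and a gate required a score of at least 0.4 and 3 detected markers (2 for NK and dendritic cells). This rule was set after marker levels were seen. Cells in more than 1 lineage gate were removed, no doublet caller was run, and monocytes and macrophages were separated by the higher score. The members and gene lists were chosen with earlier results of these data known. Named were genes of 27 lists and Ifng, Pdcd1, Cd274 and Mgat5; for each class the 4 highest and 4 lowest log2 ratios among genes with a UMI in at least 5% of cells of the library where they were higher, without gate markers, mitochondrial, ribosomal, immunoglobulin, T cell receptor, hemoglobin and Xist genes, Gm-numbered and Rik genes, and genes under 20% of their level in another class; and genes past 2-fold in at least 5 classes. A few genes that this rule selects are not reported here. Intervals are Clopper-Pearson for shares, Poisson for CPM and conditional binomial for ratios. Coordinates are GRCm38 (GENCODE M21).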

Additional observations from a re-analysis of the deposited data

How the results depend on the processing

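Shares are given here as 2DG minus control in percentage points (T 34.29, NK 3.69, neutrophil -31.56, monocyte -9.69, macrophage 0.47), and genes past 2-fold as a percentage of those compared (T 1.43, NK 10.6, B 3.68, neutrophil 12.3, monocyte 7.12, macrophage 2.67, dendritic 1.52). No class share changed direction under the settings below. Over classified cells without neutrophils, macrophages did, at 32.2% in the control and 22.05% with 2DG. Over all cells that passed the filters the shares were T 29.53, NK 3.17, neutrophil -25.96 and monocyte -7.30. With Leiden clusters as classes they were T 35.75, NK 4.21, neutrophil -34.53, monocyte -18.69 and macrophage 10.31, that of Spp1 and Gpnmb macrophages was 0.00404 (main -33.98), and 2.30% of dendritic cell genes passed. Thinning each cell to 1000 UMIs, which left out 453 control and 206 2DG cells, gave T 31.91, neutrophil -32.79, monocyte -8.08, macrophage 2.56, CD8 14.93 (main 20.95), regulatory -0.676 (main -7.12) and non-classical 19.87 (main 27.71), with genes past 2-fold at T 4.30%, NK 16.5%, macrophage 5.15% and dendritic 2.75%. Adding 1 CPM gave T 4.13%, neutrophil 20.7%, monocyte 13.1%, macrophage 5.26% and dendritic 2.92%, and adding 20 CPM gave T 0.330%, NK 4.83%, B 2.11%, neutrophil 5.09%, monocyte 3.71%, macrophage 1.28% and dendritic 0.432%. Without a filter on low counts, which adds genes to the base, the values were T 0.895%, NK 19.4%, B 11.2%, neutrophil 5.85%, monocyte 3.99%, macrophage 1.51% and dendritic 0.915%. A minimum of 200 UMIs gave NK 3.43%, the mean of CPM per cell gave dendritic 2.28%, and keeping cells with more than 1 gate gave dendritic 2.34%. The share of genes past 2-fold that were higher went from 23.1% to 39.7% (1 CPM) and 63.4% (thinned) in T cells, from 54.6% to 31.8% in B cells (200 UMIs), from 45.1% to 29.0% in dendritic cells (Leiden) and, centred on the median of all genes, from 53.9% to 35.3% in neutrophils.

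Of the single genes and lists named, 16 values reversed. Thinning turned the medians of the activation list (-0.0122) and the naive and memory list (0.0357, 7 genes) in T cells, the naive and memory list in CD8 T cells (0.424, 3 genes), and hypoxia (0.254, 4 genes) and suppressor (0.656, 1 gene) lists in dendritic cells. Leiden clusters turned, in neutrophils, Camp (-3.64), Ltf (-1.74), Ngp (-1.01) and the granule list (-0.298), and in macrophages Arg1 (0.903), Spp1 (0.130), Thbs1 (0.181) and the hypoxia (0.166), suppressor (0.0757), complement (-0.318) and chemokine (0.0850) lists. The cause was not tested. The other values were rated the same 2244 times and moved 644 times. Values near 0 could cross it without being rated as reversed. The macrophage glycolysis median was -0.0433, and 0.457 with Leiden classes. Among dendritic subset shares (2DG minus control), thinning took mature cells from -5.93 to 0.722 percentage points and type 1 cells from 0.698 to -2.51. No paired analysis was possible because each group held 1 library. Depth limits NK cells (22 control cells), B cells (63 control cells) and neutrophils (298 2DG cells).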
